A study of Rattus norvegicus with 6 samples.

Results

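Aldehyde dehydrogenases oxidise reactive aldehydes to carboxylic acids with NAD+ or NADP+ as the hydrogen acceptor. The genes described here are the members of the rat family that lie outside the set induced through the aryl hydrocarbon receptor, whose known member is Aldh3a1. They were chosen by name, and their probes were found through the RefSeq accession that each array probe carries. Of the 10 genes listed, 8 had at least 1 matched probe, with 15 probes among the 61657 probes of an array that were not controls. These 8 were Aldh1a1, Aldh1b1, Aldh1l1, Aldh2, Aldh3a2, Aldh4a1, Aldh6a1 and Aldh9a1. The gene table used to name probes has no entry under the symbol Aldh1a7, so any probe for it would stand unnamed, and no probe carried an accession that the table gives to Aldh7a1. These 2 genes were not analysed here.

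Liver RNA came from male Sprague-Dawley (Crl:CD(SD)) rats bought at 5 weeks of age, with 1 one-colour Agilent array per rat. In the ADBAQ group 3 rats had been given 1-amino-2,4-dibromoanthraquinone, an anthraquinone dye intermediate, at 1000 mg/kg/day, and in the vehicle group 3 rats had received vehicle alone. The labels name the vehicle as purified water in one field and as corn oil in another, and they give the time as 28 days or as 9 weeks. All ADBAQ arrays lay on 1 slide read on 1 scan day and all vehicle arrays on another slide and day, so an effect of the slide or scan day and one of the compound cannot be told apart in any difference below.

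In hepatocytes these enzymes are spread over several compartments and pathways. Aldh2 and Aldh1b1 work in the mitochondrial matrix and clear acetaldehyde from ethanol, whereas Aldh1a1 is cytosolic and is best known for turning retinal into retinoic acid. Other members act in the breakdown of proline (Aldh4a1), of valine and pyrimidines (Aldh6a1) or of fatty aldehydes (Aldh3a2). Aldh1l1 oxidises folate-bound formyl groups, and Aldh9a1 oxidises the carnitine precursor trimethylaminobutyraldehyde.

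Every value below is the log2 processed signal of a probe minus the log2 of that array's 75th percentile, so a value of 0 lies at that percentile. Differences are ADBAQ minus vehicle, with n = 3 rats in each group, and adjusted p-values come from limma with Benjamini-Hochberg adjustment over all 38695 probes tested. The 75th percentile itself was between 570.3 and 643 on ADBAQ arrays and between 432.7 and 461.5 on vehicle arrays. Between 64.3% and 65.3% of probes were well above background on ADBAQ arrays and between 62.1% and 62.8% on vehicle arrays, saturation was met on no array, and all 15 member probes were well above background on all 6 arrays. Each gene was represented by its brightest probe, and probes of different genes are not set against each other as levels. Liver identity was plain from Alb, albumin, which lay between 9.57 and 9.74 on ADBAQ arrays and between 9.95 and 10.06 on vehicle arrays.

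With 8 members tested, 1 call is too few to tell their share apart from that of all genes. Aldh2 fell and passed the threshold of 0.05, none rose past it, and 7 of the 8 did not pass. That is 12.5% of the members called, against 20.3% of the 11344 genes tested. With limma and no adjustment, 2 members were higher and 4 lower at p under 0.05. The share of all genes at this level is at least the 20.3% called after adjustment, but it was not counted. The unadjusted counts here and below therefore have no background to be read against. The median difference of the 8 was -0.23, against -0.04 for all genes. In size, 6 of the 8 exceeded the median absolute difference of all genes, 0.25, and Aldh3a2 and Aldh4a1 did not. Genes in general exceed a median as often as not, and Aldh9a1 (-0.30) and Aldh6a1 (-0.33) exceeded it by little. Of the 8 genes, 7 had groups that did not overlap, 2 of them higher and 5 lower in ADBAQ, which is 87.5% against 46.3% of all genes (21.2% higher and 25.1% lower). The split of calls over all genes was 44.5% higher as reported, 34.4% with normexp background correction and 97.9% when arrays were scaled to their spike-in controls.

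**Figure D1:**
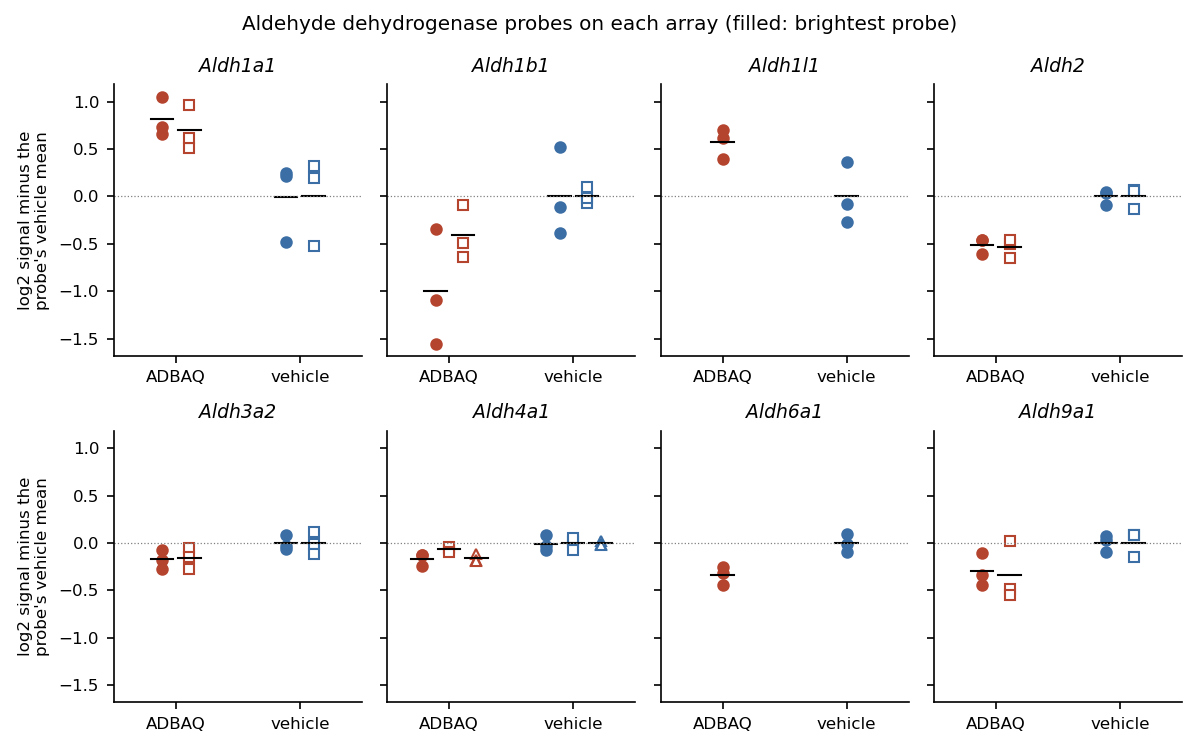
Each panel plots 1 aldehyde dehydrogenase gene, with ADBAQ arrays in red and vehicle arrays in blue, as the log2 signal minus the mean of that probe over vehicle arrays. Filled circles are the brightest probe, open symbols the gene's other probes and short bars the means. Aldh1a1 and Aldh1l1 lie higher on every ADBAQ array, Aldh2 lies lower with both probes, and Aldh1b1 scatters most.

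Aldh2, the main acetaldehyde dehydrogenase of liver mitochondria, had log2 signals of 6.75, 6.90 and 6.90 on ADBAQ arrays, against 7.27, 7.40 and 7.41 on vehicle arrays. The groups were narrow and did not overlap, with a gap of 0.37 between the highest ADBAQ rat and the lowest vehicle rat. It fell by 0.51 on the log2 scale (SE 0.09, adjusted p = 0.0175), a ratio of ADBAQ to vehicle of 0.702. A second probe gave 6.37, 6.52 and 6.56 on ADBAQ arrays and 6.89, 7.09 and 7.08 on vehicle arrays, and it fell by 0.54 (SE 0.10, adjusted p = 0.0204). With 1 array fewer the difference stayed between -0.55 and -0.46, but the call was lost without ADBAQ replicate 1, 2 or 3 or vehicle replicate 2 (highest adjusted p = 0.0624). With spike-in scaling, where each array is set to its added control RNAs and the median of all genes was 0.72, the sign of Aldh2 turned, to 0.25 (adjusted p = 0.0437).

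Aldh1b1 is the mitochondrial relative of Aldh2 with an overlapping range of substrates. Its brighter probe had -1.34, -0.59 and -1.80 on ADBAQ arrays, against 0.27, -0.36 and -0.64 on vehicle arrays. One ADBAQ rat, replicate 2, lay above the lowest vehicle rat, so the groups overlapped. The difference was -0.99 (SE 0.36, 95% interval -1.87 to -0.12, adjusted p = 0.104), the widest interval of the 8 genes. The SD of the ADBAQ rats was 0.61, and 97% of all probes tested had an SD that was no larger. The dimmer probe had the same sign with a smaller difference of -0.41 (adjusted p = 0.114), and its groups were separated by 0.03. Only with normexp background correction was the brighter probe called among the 11 alternatives that kept every array (-0.87, adjusted p = 0.0413).

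Aldh1a1, the cytosolic retinal dehydrogenase, had the largest positive difference among the members. Its brighter probe read 7.78, 7.39 and 7.46 on ADBAQ arrays, against 6.98, 6.95 and 6.25 on vehicle arrays. All 3 ADBAQ rats lay above all 3 vehicle rats, and vehicle replicate 3 was well below the other two. The difference was 0.82 (SE 0.23, 95% interval 0.27 to 1.36), a ratio of 1.76, and it missed the threshold narrowly (adjusted p = 0.0527). The other probe read 5.72, 5.27 and 5.38 on ADBAQ arrays and 5.08, 4.96 and 4.24 on vehicle arrays, a difference of 0.70 (adjusted p = 0.096), with vehicle replicate 3 again the lowest. Aldh1a1 was called in 5 of the 11 alternatives that kept every array, among them normexp background correction (0.99, adjusted p = 0.0126) and quantile normalization (0.94, adjusted p = 0.0281). It was not called with any 1 array left out, where the difference lay between 0.58 and 0.94 and the adjusted p between 0.0661 and 0.146.

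Aldh1l1, formyltetrahydrofolate dehydrogenase, is an abundant cytosolic enzyme of liver that returns folate to its unsubstituted form. Its single probe had 5.87, 6.09 and 6.17 on ADBAQ arrays, against 5.20, 5.83 and 5.39 on vehicle arrays. The groups were separated by only 0.04, between ADBAQ replicate 1 and vehicle replicate 2. The difference was 0.57 (SE 0.18, 95% interval 0.13 to 1.00, adjusted p = 0.0756), a ratio of 1.48. Without vehicle replicate 2 it was called (0.75, adjusted p = 0.0364), as it was with normexp background correction (0.69, adjusted p = 0.011), with trend and robust estimation (0.57, adjusted p = 0.0497) and with spike-in scaling.

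Aldh6a1, methylmalonate semialdehyde dehydrogenase, had 1.22, 1.41 and 1.34 on ADBAQ arrays and 1.75, 1.57 and 1.65 on vehicle arrays from 1 probe. No ADBAQ rat reached the lowest vehicle rat. The difference was -0.33 (SE 0.10, 95% interval -0.56 to -0.10, adjusted p = 0.0613), and it was called in 4 of the 11 alternatives that kept every array, in 3 of them as lower. With spike-in scaling it was called with the opposite sign (0.43).

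Aldh9a1, which oxidises trimethylaminobutyraldehyde, had 6.88, 6.65 and 6.55 on ADBAQ arrays and 7.02, 6.89 and 7.06 on vehicle arrays. The groups were 0.01 apart on this probe and overlapped on the other one. The differences were -0.30 (95% interval -0.58 to -0.02, adjusted p = 0.123) and -0.34 (95% interval -0.76 to 0.07, adjusted p = 0.205). The call was made in none of the alternatives except spike-in scaling, where the sign was positive (0.46).

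Aldh3a2, the fatty aldehyde dehydrogenase of the endoplasmic reticulum, had 7.07, 6.96 and 6.87 on ADBAQ arrays and 7.11, 7.22 and 7.08 on vehicle arrays. The groups nearly touched, and on the second probe they overlapped. Its differences were -0.17 (95% interval -0.40 to 0.06, adjusted p = 0.25) and -0.15 (95% interval -0.41 to 0.10, adjusted p = 0.342). Neither probe passed the threshold as reported, and spike-in scaling was the one alternative with a call, at 0.59.

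Aldh4a1, the last enzyme of proline breakdown to glutamate, had 6.61, 6.72 and 6.72 on ADBAQ arrays and 6.82, 6.93 and 6.78 on vehicle arrays. Its 3 probes gave differences of -0.16, -0.06 and -0.16, with adjusted p-values of 0.243, 0.633 and 0.2. The rats of a group lay close together, with SDs of 0.07 in ADBAQ and 0.08 in vehicle on the brightest probe. The interval of that probe was -0.38 to 0.05, and the call was made in none of the alternatives except spike-in scaling, where the sign was positive (0.59).

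**Figure D2:**
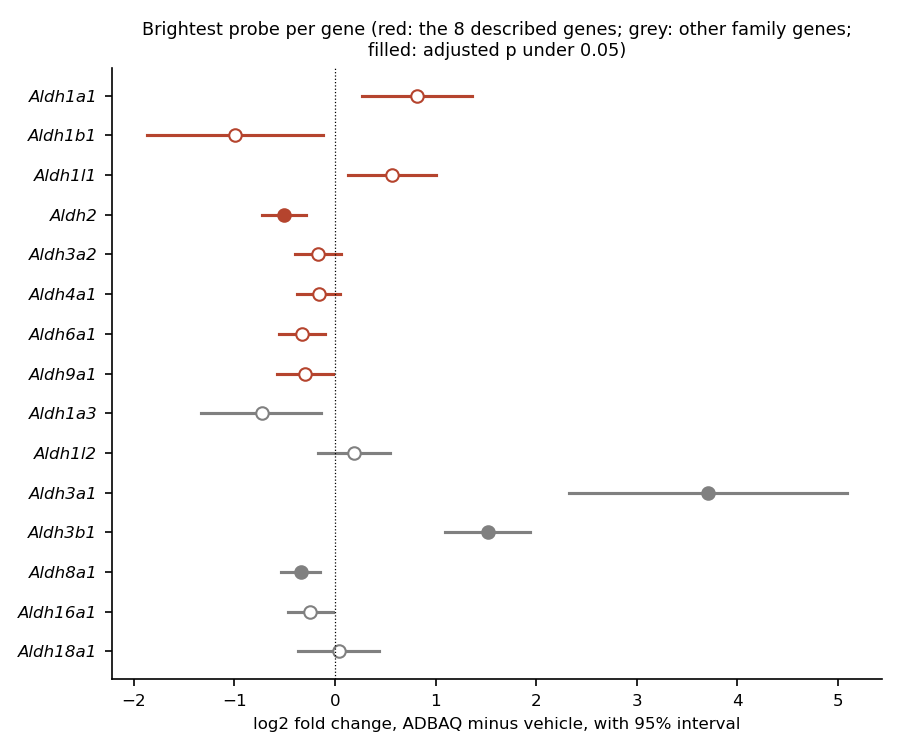
The horizontal axis is the log2 fold change, ADBAQ minus vehicle, of the brightest probe of each gene, with limma's 95% interval as a line. Red marks the 8 genes described here, grey the other family genes, and filled points have an adjusted p under 0.05. Aldh2 is the filled red point at -0.51, while Aldh3a1 at 3.71 and Aldh3b1 at 1.52 lie farthest to the right.

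All 6 genes with several probes had the same sign on each of them, and 12 of the 15 probes were lower in ADBAQ. Probes of 1 gene read the same RNA samples and are not separate support, and the share of all probes that were lower was not counted. Of the 15 probes 2 were called, both of them Aldh2 and lower, and none was called higher. Of all probes 18.4% were called, 10% lower and 8.37% higher. The sign of a small difference still depends on what the arrays are scaled to. The 75th percentile lay between -3.61 and -3.57 relative to the mean of the spike-in controls on ADBAQ arrays, and between -4.39 and -4.27 on vehicle arrays (log2). With spike-in scaling Aldh2, Aldh3a2, Aldh4a1, Aldh6a1 and Aldh9a1 therefore turned positive, and only Aldh1b1 stayed negative, at -0.24. This scaling moves all genes of an array by 1 amount, so it leaves their positions relative to the median of all genes as they were. Relative to that median, 6 members lay below and 2 above, which is no separate result. Aldh2 was at -0.47 and Aldh1b1 at -0.96, against 0.85 for Aldh1a1 and 0.60 for Aldh1l1.

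The contrast between members can be read within an array, where the scaling cancels. The log2 signal of Aldh1a1 minus that of Aldh2 was 1.03, 0.50 and 0.57 on ADBAQ arrays, against -0.29, -0.45 and -1.16 on vehicle arrays. Only the shift between groups has a meaning here, because the probes differ in brightness for the same amount of RNA. That shift was 1.33, a change in the ratio of the 2 transcripts of 2.51-fold, and every ADBAQ array lay above every vehicle array. For Aldh1l1 minus Aldh2 the values were -0.88, -0.81 and -0.73 on ADBAQ arrays and -2.07, -1.57 and -2.01 on vehicle arrays, a shift of 1.08. In all, 12 such pairs were compared, each setting Aldh1a1 or Aldh1l1 against 1 of the 6 lower members, pairs picked with the values in view. The shifts ran from 0.73 to 1.81 without overlap between the groups. For every pair but those with Aldh1b1 this was fixed in advance. In them 1 gene was higher, and the other lower, on every ADBAQ array than on every vehicle array. Each pair had a two-sided exact permutation p of 0.1 (0.1 also after adjustment over the 12 pairs), the smallest that 3 against 3 rats can give. This p was fixed in the same way and adds no support.

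**Figure D3:**
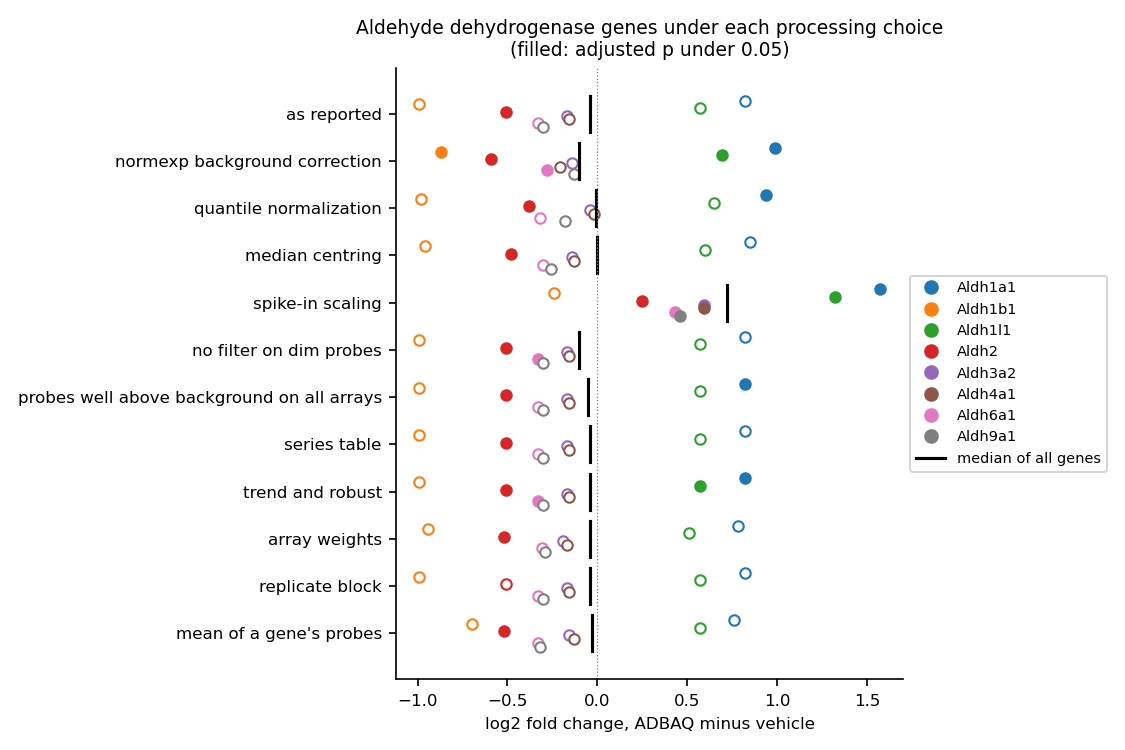
Rows are the processing choices that kept all 6 arrays, points the log2 fold change (ADBAQ minus vehicle) of each gene's brightest probe or, in the last row, the mean of its probes, and black bars the median of all genes. Filled points have an adjusted p under 0.05. With spike-in scaling every gene moves to the right together with the bar, and the order of the genes along the axis stays much the same.

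Promoter sequence was examined because the receptor and the oxidant response factor known to act on Aldh3a1 and related genes read short motifs. Windows from 250 bases before to 50 bases after the start of transcription came from RefSeq (build GRCr8) and were found for 8 of the 10 listed genes, all but Aldh1a7 and Aldh2. Aldh3a1 itself had no window either, so the motifs of that induced gene were not examined. The letters searched on both strands were GCGTG (the core read by the aryl hydrocarbon receptor), TGACNNNGC (the core of the antioxidant response element) and CCAAT (the CCAAT box). GCGTG was in 3 of the 8 windows, those of Aldh3a2, Aldh7a1 and Aldh9a1, against 29.7% of 33469 rat promoter windows. TGACNNNGC was in 1, that of Aldh9a1, against 12.1% of windows. CCAAT was in 7 of the 8, all but Aldh4a1, against 37.5% of windows. The TATA box was in 1 of the 8 (14.2% of windows), the GC box in 4 (33.1%) and direct repeat 1 in 0 (0.0538%). These are matches of letters in short windows, not binding sites.

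The windows of Aldh1a1 and Aldh1l1, the members that were higher on every ADBAQ array, and of Aldh9a1, which holds both response motifs and was lower, are printed with the 3 motifs in capitals (ATTGG is CCAAT and CACGC is GCGTG on the opposite strand).
Aldh1a1 (GRCr8 chr1:227537370-227537669, + strand): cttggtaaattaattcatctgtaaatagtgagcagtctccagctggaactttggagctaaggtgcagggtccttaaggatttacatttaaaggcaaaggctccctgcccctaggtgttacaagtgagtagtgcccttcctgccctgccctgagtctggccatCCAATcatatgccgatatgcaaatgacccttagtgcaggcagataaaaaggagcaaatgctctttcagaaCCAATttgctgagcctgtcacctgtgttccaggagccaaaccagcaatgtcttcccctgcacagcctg
Aldh1l1 (GRCr8 chr4:124616970-124617269, + strand): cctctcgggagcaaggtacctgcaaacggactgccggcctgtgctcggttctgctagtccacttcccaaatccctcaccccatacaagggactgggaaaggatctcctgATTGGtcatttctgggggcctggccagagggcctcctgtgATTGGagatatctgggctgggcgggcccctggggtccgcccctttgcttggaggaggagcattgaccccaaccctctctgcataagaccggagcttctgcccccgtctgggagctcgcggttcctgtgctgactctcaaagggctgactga
Aldh9a1 (GRCr8 chr13:82038429-82038728, + strand): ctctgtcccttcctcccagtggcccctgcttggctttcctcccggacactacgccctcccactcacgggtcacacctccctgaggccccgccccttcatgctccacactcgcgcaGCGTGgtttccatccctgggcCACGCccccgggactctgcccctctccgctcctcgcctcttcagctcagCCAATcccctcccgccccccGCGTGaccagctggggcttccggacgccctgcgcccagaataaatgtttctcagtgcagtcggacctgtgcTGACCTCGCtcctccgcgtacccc
In these windows Aldh1a1 and Aldh1l1 carried CCAAT alone of the 3 motifs in capitals, at 2 places each, while Aldh9a1 had GCGTG at 3 places, TGACCTCGC just after the start and 1 CCAAT.

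Among the other aldehyde dehydrogenases, 7 of 10 listed genes were tested, of which 2 rose and 1 fell. Aldh3a1, the member known to be induced through the aryl hydrocarbon receptor, read 2.87, 1.97 and 4.41 on ADBAQ arrays, against -0.66, -0.52 and -0.69 on vehicle arrays, a rise of 3.71 (SE 0.57, adjusted p = 0.0116) on the brightest probe and of 7.35 on the second. Aldh3b1, an enzyme of medium and long-chain aldehydes, read 0.51, 0.34 and 0.25 on ADBAQ arrays, against -1.04, -0.91 and -1.51 on vehicle arrays. It rose by 1.52 (SE 0.18, adjusted p = 0.00595), a ratio of 2.86, and by 1.5 on its second probe. Both rises were called with any 1 array left out and in all alternatives run. Aldh8a1, an enzyme of tryptophan breakdown, read 2.61, 2.63 and 2.55 on ADBAQ arrays, against 2.95, 2.92 and 2.95 on vehicle arrays. It fell by 0.34 (SE 0.08, adjusted p = 0.034), a call lost with any 1 array left out (highest adjusted p = 0.104) and turned to 0.41 with spike-in scaling.

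The remaining family genes did not pass the threshold. Aldh1a3, a further retinal dehydrogenase, had a difference of -0.73 (adjusted p = 0.087), and its probe was well above background on 2 ADBAQ and 3 vehicle arrays. Aldh16a1 had -0.25 (adjusted p = 0.112), Aldh1l2, the mitochondrial counterpart of Aldh1l1, 0.19 (adjusted p = 0.397), and Aldh18a1, which makes the proline precursor, 0.04 (adjusted p = 0.893) on its brightest probe and 0.77 on its other one. Aldh1a2 was above background on too few arrays to be tested.

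The genes that work next to each member were examined as 8 lists, chosen with earlier results of these data known. Their counts depend on the scaling. With spike-in scaling 80.5% of all genes were called, 97.9% of those calls were higher, and the median of all genes was 0.72. Of 10 genes of alcohol and acetaldehyde metabolism, 1 fell and none rose, with a median of -0.18. With limma and no adjustment, none was higher and 2 were lower at p under 0.05. The gene that fell was Cyp2e1, the ethanol-oxidising cytochrome P450, which read 7.30, 7.75 and 7.42 on ADBAQ arrays, against 8.61, 8.58 and 8.45 on vehicle arrays, a change of -1.06 (SE 0.14, adjusted p = 0.00813). With spike-in scaling Cyp2e1 was at -0.30 and not called (adjusted p = 0.0872), and the list had 8 higher and none lower, with a median of 0.57. None of the alcohol dehydrogenase genes in the list (Adh1c, Adh4, Adh5, Adh6 and Adh7) passed the threshold. Adh6a, which was not in the list and is named after its value was seen, was called lower in limma (-0.77, adjusted p = 0.00818). Its signal was low, with means of -4.24 in ADBAQ and -3.47 in vehicle, and it was not followed through the alternatives. Adh1c, the main ethanol-oxidising alcohol dehydrogenase of liver, had a difference of -0.22 (adjusted p = 0.331).

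Around Aldh1a1, 16 genes of retinoid metabolism were tested, and 1 rose and 4 fell, with a median of -0.38. Cyp26a1, which breaks down retinoic acid, read -1.07, -1.36 and -1.29 on ADBAQ arrays, against -2.01, -1.78 and -2.20 on vehicle arrays, a rise of 0.76 (SE 0.14, adjusted p = 0.0189). Its relative Cyp26b1 changed the other way, by -1.32 (SE 0.28, adjusted p = 0.0272), and read -3.13, -2.02 and -2.68 on ADBAQ arrays, against -1.44, -1.35 and -1.08 on vehicle arrays. Both calls were lost without ADBAQ replicate 1 or 3 or vehicle replicate 1, and that of Cyp26b1 also without vehicle replicate 2 or 3 (highest adjusted p = 0.0817). With 1 array left out, the list's count of lower genes was 3 without ADBAQ replicate 3, 0 without ADBAQ replicate 1 and 1 with any other single array left out. With spike-in scaling the list had 8 higher and none lower (median 0.37), and Cyp26b1 was at -0.57 (adjusted p = 0.0855).

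Around Aldh1l1, 15 folate genes were tested, and 3 rose and 1 fell, with a median of -0.02. Tyms, thymidylate synthase, read -0.19, -0.73 and -0.47 on ADBAQ arrays, against -1.43, -1.08 and -1.43 on vehicle arrays, and rose by 0.85 (SE 0.17, adjusted p = 0.0236). The call of Tyms was lost without ADBAQ replicate 1 or 3 or vehicle replicate 1 or 3 (highest adjusted p = 0.0709). Ftcd, which feeds formimino groups from histidine breakdown into folate, changed by -0.57 (SE 0.09, adjusted p = 0.0144) and turned to 0.19 with spike-in scaling. Its call was lost without ADBAQ replicate 2 or 3 (highest adjusted p = 0.0519). The 3 higher calls of the list became 0 without ADBAQ replicate 1 or 3 or vehicle replicate 1 or 3, and 1 without ADBAQ replicate 2. With spike-in scaling 12 were higher and none lower (median 0.74).

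Around Aldh4a1, 7 genes of proline, hydroxyproline and ornithine were tested, and 4 fell and none rose, with a median of -0.51. With limma and no adjustment, 1 was higher and 5 were lower at p under 0.05. Oat, ornithine aminotransferase, which makes the substrate of Aldh4a1 from ornithine, read 2.83, 2.84 and 2.98 on ADBAQ arrays, against 4.51, 4.71 and 4.91 on vehicle arrays, a change of -1.83 (SE 0.13, adjusted p = 0.00156). Prodh, proline dehydrogenase, which makes the same substrate from proline and is named after its value was seen, changed by -1.22 (SE 0.26, adjusted p = 0.0255), a call lost without ADBAQ replicate 1 or 3 or vehicle replicate 1 or 3 (highest adjusted p = 0.0786). The list's count of lower genes was 1 without ADBAQ replicate 1 or 3 and 2 without vehicle replicate 1 or 3. With spike-in scaling 2 were higher and 1 lower (median 0.24), Oat was at -1.07 (adjusted p = 0.000513) and Prodh at -0.47 (adjusted p = 0.125).

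Around Aldh6a1, 15 genes of valine and pyrimidine breakdown were tested, and 2 rose and 4 fell, with a median of -0.26. Bcat2, the mitochondrial branched-chain aminotransferase, read 0.13, 0.19 and 0.20 on ADBAQ arrays, against -0.69, -0.79 and -0.60 on vehicle arrays, and rose by 0.87 (SE 0.09, adjusted p = 0.00448). Dpyd, the first enzyme of pyrimidine breakdown, read -1.01, -0.80 and -1.02 on ADBAQ arrays, against 0.15, 0.04 and 0.58 on vehicle arrays, a change of -1.20 (SE 0.16, adjusted p = 0.00905). Both were called with any 1 array left out, but the list had 1 higher gene in place of 2 with any single array but vehicle replicate 1 left out. With spike-in scaling 9 were higher and 1 lower (median 0.50), and Dpyd was at -0.45 (adjusted p = 0.0312).

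Around Aldh7a1, which itself had no matched probe, 7 of 10 genes of lysine and choline breakdown fell and none rose, with a median of -0.63. With limma and no adjustment, none was higher and 8 were lower at p under 0.05. Aass, the enzyme that opens the main lysine route, read -0.81, -0.83 and -0.76 on ADBAQ arrays, against 1.07, 1.13 and 1.01 on vehicle arrays, a change of -1.87 (SE 0.08, adjusted p = 0.000452). The count of lower genes was 4 without ADBAQ replicate 2, and with spike-in scaling 3 were higher and 2 lower (median 0.12), with Aass at -1.12 (adjusted p = 0.000403). Around Aldh9a1, 2 of 9 genes of carnitine and polyamines fell and none rose, with a median of -0.25, and with no adjustment 1 was higher and 4 were lower at p under 0.05 in limma. Bbox1, which completes carnitine synthesis from the product of Aldh9a1, read 2.62, 2.69 and 2.38 on ADBAQ arrays, against 3.46, 3.37 and 3.54 on vehicle arrays, a change of -0.90 (SE 0.11, adjusted p = 0.00765). With spike-in scaling Bbox1 was at -0.14 and not called (adjusted p = 0.302), and 6 genes of its list were higher and none lower (median 0.50).

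Around Aldh3a2, 4 of 11 genes of sphingolipid and fatty aldehyde metabolism fell and none rose, with a median of -0.26, and with no adjustment 1 was higher and 4 were lower at p under 0.05 in limma. Hacl1, the peroxisomal lyase that releases a fatty aldehyde in phytanic acid breakdown, read 5.40, 4.86 and 5.01 on ADBAQ arrays, against 6.74, 7.5 and 7.24 on vehicle arrays, a change of -2.07 (SE 0.23, adjusted p = 0.0054). With spike-in scaling Hacl1 was at -1.31 (adjusted p = 0.00178), and 7 genes of the list were higher and 1 lower (median 0.50). The calls of Aass, Bbox1 and Hacl1 held with any 1 array left out. Over all genes, 9.05% were called higher and 11.3% lower, and the lists were not tested as lists. The shares of all genes at p under 0.05 with no adjustment were not counted.

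**Figure D4:**
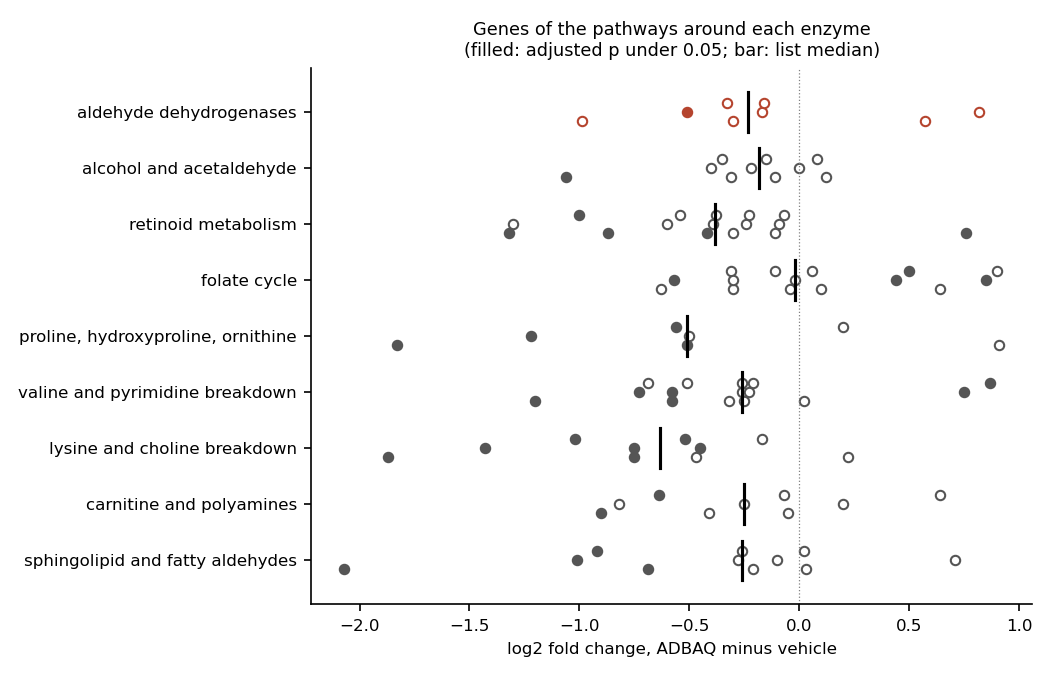
Each point is the log2 fold change (ADBAQ minus vehicle) of 1 gene, in rows by pathway, with the aldehyde dehydrogenases in red at the top. Filled points have an adjusted p under 0.05 and black bars are list medians. The red points lie between -0.99 and 0.82, while the pathway rows reach -2.07 for Hacl1 and -1.87 for Aass.

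Markers of cell types also differed between the groups, and in bulk tissue fewer cells of a type and less RNA per cell cannot be told apart. General hepatocyte markers had 5 of 8 lower and none higher, with a summed signal of 4600 to 4930 times the 75th percentile on ADBAQ arrays, against 5990 to 6520 on vehicle arrays, and with spike-in scaling all 8 were positive, with a median of 0.40 against 0.72 for all genes. Periportal markers had 5 of 7 lower and none higher (209 to 216 on ADBAQ arrays, 383 to 432 on vehicle arrays). With quantile normalization 1 hepatocyte marker was lower (median -0.12) and Alb was at 0.07, while 5 periportal markers were lower. The replicate number as a block left 1 hepatocyte and 4 periportal markers lower, and normexp background correction gave 6 and 5. With no adjustment 6 hepatocyte and 7 periportal markers were lower and none was higher at p under 0.05 in limma, a level at which the share of all genes was not counted. Pericentral markers had 1 of 7 higher and 3 lower (175 to 237 on ADBAQ arrays, 395 to 427 on vehicle arrays), and cholangiocyte markers 3 of 6 higher and 1 lower (2.78 to 4.28 on ADBAQ arrays, 1.76 to 2.04 on vehicle arrays). The lower pericentral markers were Glul, Cyp2e1 and Oat. Cyp2e1 and Oat are the same measurements as in the pathway lists above, so they are not separate support. Erythroid markers had 4 of 4 higher (1090 to 1390 on ADBAQ arrays, 541 to 825 on vehicle arrays). Of 6 lymphocyte markers 1 was lower. Of the 7 macrophage, 8 stellate, 4 endothelial, 3 neutrophil and 3 muscle markers tested none was called by limma, and with no adjustment 1 stellate marker was higher and 2 stellate and 2 endothelial markers were lower at p under 0.05. With spike-in scaling 7 of 7 macrophage, 7 of 8 stellate, 4 of 4 endothelial, 3 of 3 neutrophil, 3 of 3 muscle, 5 of 6 lymphocyte, 5 of 6 cholangiocyte, 4 of 4 erythroid and 4 of 8 hepatocyte markers were called higher and none lower, while periportal markers had 1 higher and 1 lower and pericentral markers 2 higher and 1 lower. Of all genes, 80.5% were called with spike-in scaling, and 97.9% of those calls were higher, so most of these counts lie near what all genes give. Several counts also rested on single arrays. Erythroid markers called higher numbered 0 without ADBAQ replicate 1 or 3, 1 without vehicle replicate 2 and 2 without vehicle replicate 1. Cholangiocyte markers called higher numbered 0 without ADBAQ replicate 1 or 3 and 1 without vehicle replicate 1 or 2, and the lower one was lost without ADBAQ replicate 1 or 2 or vehicle replicate 3. Hepatocyte markers called lower numbered 2 without ADBAQ replicate 1 and 3 with any other single array left out. The pericentral marker that was higher lost its call without ADBAQ replicate 2 or 3 or vehicle replicate 3, the lymphocyte marker lost its call with any single array but vehicle replicate 1 left out, and 1 stellate marker was called lower without vehicle replicate 1. The part of these shifts in the differences of the aldehyde dehydrogenases was not tested.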

How the data were processed

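Feature Extraction 10.7.1.1 produced the scanner files from an Agilent design built on rn4, per the file headers. The columns taken from these deposited files are linear intensity values (processed signal, with background already removed, median spot signal, median local background) and flags of the kind other. The authors' deposited series table holds a ratio, the processed signal over the array's 75th percentile, as found by setting each column against its array. It is linear and not centred on genes, its column medians ran from 0.0929 to 0.0982, and it is no independent check.

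From these, log2 processed signals minus the array's 75th percentile were computed without outlier spots (0 to 2 an array). A probe was tested where all 3 arrays of either group had it flagged as well above background. The test was limma 3.58.1 (lmFit, eBayes; R 4.3.3), two-sided, with Benjamini-Hochberg adjustment over 38695 probes and 95% intervals from eBayes. A RefSeq table of build GRCr8 named 27460 probes of 15284 genes by accession. The rule for names took all members, the other family genes, and in each pathway list the called gene with the largest rise and the largest fall. The members, the 8 pathway lists and the 11 cell type lists were chosen with earlier results of these data known. In data simulated for this comparison, on 38695 probes, 44% of 100 probes changed by 1 on the log2 scale and 81% of 100 changed by 2 were called, with 3.8% of calls false. The simulation changed only these probes and used normal noise with SDs shuffled over probes. In the data 18.4% of probes were called. The adjustment depends on that share, so the recovery is not the power of this comparison. The number of arrays limits the precision. Cross-hybridisation between similar family members was not examined. The alternatives are given in the closing section.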

Additional observations from a re-analysis of the deposited data

How the results depend on the processing

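Of 136 member values recomputed under 17 alternatives each, 113 kept their sign and their side of the threshold, 13 passed it in addition, 5 lost it (all Aldh2) and 5 changed sign. The differences themselves could not change with the other probe filters, trend and robust estimation or the replicate block. The series table holds the same signal over the same percentile. Part of the kept signs was therefore fixed in advance. All 5 changes of sign came with spike-in scaling, which moved the median of all genes to 0.72: Aldh2 0.25, Aldh3a2 0.59, Aldh4a1 0.59, Aldh6a1 0.43 and Aldh9a1 0.46. The count of genes called was 2308 as reported (20.3% of the genes tested), 4044 with normexp background correction (35.6%) and 9130 with spike-in scaling (80.5%). It was 3530 with no filter on dim probes (23.1%). With 1 array left out it ranged from 901 (without ADBAQ replicate 1) to 1543 (without vehicle replicate 1). Members called higher numbered 0 as reported, 2 with normexp or with trend and robust estimation, 1 with quantile normalization or with probes well above background on all arrays, 7 with spike-in scaling, and 0 to 1 with 1 array left out. Members called lower numbered 1 as reported, 3 with normexp, 2 with no filter or with trend and robust estimation, 0 with spike-in scaling, and 0 to 1 with 1 array left out. The causes were not tested, and a fit with 1 array left out also rests on fewer arrays.

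The groups share replicate numbers, but the deviations of same-numbered rats did not correlate (-0.03, -0.02 and 0.00), so the number is not taken as a pairing. With the replicate number as a block, 982 genes were called, 0 members were called higher and 0 lower, and Aldh2 had an adjusted p of 0.0515. A fit with slide as a term was not run, since no slide carried both groups. Normexp used the median spot signal.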
